A study of Sus scrofa with 20 samples.

Results

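GPAM, CIDEC and PCK1 act at separate steps of triglyceride assembly and storage, and their transcripts were followed in the backfat of 20 pigs. The members were the loci of the deposited gene tables whose Ensembl identifier maps to these symbols, 3 loci of 23483. Each symbol had 1 locus and each locus carried a single identifier: XLOC_011639 with ENSSSCG00000010631 for GPAM, XLOC_008647 with ENSSSCG00000011557 for CIDEC and XLOC_015494 with ENSSSCG00000007507 for PCK1. All 3 passed the filter on low counts. The rule used no measured value.

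The animals were Italian Large White pigs, 10 females aged 235 to 250 days and 10 castrated males aged 233 to 249 days. All weighed 150 to 160 kg and shared housing and diet. Backfat, a subcutaneous fat depot, was taken at slaughter, and RNA captured with oligo-dT was sequenced as paired reads of 100 bp. Intact males were not part of the design, so sex and castration cannot be told apart. The females were 244 ± 5.64 days old on average and the castrated males 240.4 ± 4.53 days (SD, n = 10 per group). The labels give no batch or date.

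Fat cells store fatty acids as triglyceride, which needs a glycerol backbone, fatty acyl chains and a droplet to hold the product. GPAM, the mitochondrial glycerol-3-phosphate acyltransferase, attaches the first acyl chain to glycerol-3-phosphate. CIDEC sits on the droplet surface and promotes the transfer of lipid between droplets, which lets large droplets form in white fat cells. PCK1, the cytosolic phosphoenolpyruvate carboxykinase, feeds glyceroneogenesis, the route by which fat makes glycerol-3-phosphate from precursors other than glucose, and is also known for gluconeogenesis in liver.

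Library totals lay between 25754778 and 51248122 counts (median 36922247), and mitochondrially encoded loci took 8.49 to 26.3% of counts. A library's name gives its labelled sex and its place in the order of deposit. The libraries numbered 10 went against their labels. A fit without them called 18 loci between the sexes, and the library labelled female 10 lay nearer to the castrated males at 16 of these and the library labelled castrated male 10 nearer to the females at 17. Each of the other 18 libraries lay nearer to the other sex at 0 to 2. The fit had chosen the loci with these same libraries, so their place was largely set in advance. The libraries numbered 10 also had the lowest totals, 25754778 counts in female 10 and 28009303 in castrated male 10. Castrated male 10 had the highest mitochondrial share, 26.3%. The part of depth was not tested. Because of the libraries numbered 10, the sex differences of the members, of their ratios and of the lists are given with and without both. Markers of fat cells were present, with 7 of 12 listed genes measured. Without CIDEC, which is among the 7, their summed level was 1684 to 4412 CPM (counts scaled to library size). ADIPOQ, LEP, FABP4, THRSP and AQP7 found no locus by identifier and were not analysed here. The 2 skeletal muscle markers read here lay below the filter on low counts, with 0 to 208 counts per library for ACTA1, the actin of skeletal muscle, and 0 to 3 for TNNC2, a troponin, and the other 7 listed were not analysed here. In bulk tissue, fewer cells of a type and less RNA per cell cannot be told apart.

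Per length, the 3 transcripts differed greatly in abundance. FPKM (fragments scaled to transcript length and to the fragments mapped, as deposited) averaged 626 ± 226 for CIDEC, 29.1 ± 26.3 for PCK1 and 4.76 ± 0.535 for GPAM (SD, n = 20). By mean FPKM, CIDEC ranked 142, PCK1 2652 and GPAM 8942 among the 23483 loci. CIDEC stood above PCK1 and above GPAM in 20 of 20 libraries. PCK1 stood above GPAM in 19 of 20, with female 3 as the exception at a PCK1 to GPAM ratio of 0.912. That ratio reached 23.4 in female 9, so PCK1 and GPAM were neighbours in some animals and far apart in others.

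Relatives of the members set the scale. GPAM made up 3.23 ± 0.675% (SD, n = 20) of the summed FPKM of GPAM, GPAT3 and GPAT4, the 3 glycerol-3-phosphate acyltransferases with a locus. GPAT4, an enzyme of the endoplasmic reticulum, was above GPAM in 20 of 20 libraries, by a median of 30.1-fold. GPAT3 was above GPAM in 12 of 20, with a median ratio of 1.09, so no order held between them across libraries. PCK1 made up 86.0 ± 9.71% of the summed FPKM of PCK1 and PCK2, its mitochondrial counterpart, from 61.9% in female 3 to 98.1% in female 9. CIDEC was above PLIN1, the perilipin that coats the droplets of fat cells, in 18 of 20 libraries, by a median of 1.36-fold. In female 9 and castrated male 1 it was below PLIN1. The PLIN1 locus spans several gene identifiers, so its level is uncertain.

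GPAM was the steadiest of the 3. In CPM scaled by TMM, an adjustment for library composition, it ran in females from 23.9 in female 8 through a median of 29.9 to 46.8 in the library labelled female 10. In castrated males it ran from 26.0 in castrated male 1 through a median of 28.8 to 34.5 in the library labelled castrated male 10. The range of the castrated males lay inside that of the females. The female mean was 30.9 ± 6.53 CPM and that of castrated males 29.7 ± 2.79 CPM (SD, n = 10 per group), from 908 to 1754 counts per library. The libraries numbered 10 held the highest value of each group in CPM. In FPKM, female 10 was also highest at 5.85, whereas castrated male 10 was the lowest of its group at 4.11. GPAM gave 8.0 and 8.41 CPM per FPKM in those libraries against 5.73 to 6.43 in the other 18, so its place in them depended on the unit.

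CIDEC varied over a 7.0-fold range. In females it ran from 472 CPM in female 9 through a median of 825 to 1511 in female 7. In castrated males it ran from 216 CPM in castrated male 1 through a median of 803 to 1056 in castrated male 4. The groups overlapped, and castrated male 1 lay far below the next castrated male, number 9 at 621 CPM. The female mean was 886 ± 343 CPM and that of castrated males 756 ± 230.3 CPM (SD, n = 10 per group), from 9087 to 62262 counts. A RefSeq long non-coding gene, LOC106505669, overlaps CIDEC in the Sscrofa11.1 annotation, and the strand setting of the counting is not given in the sources used here, so their reads cannot be told apart.

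PCK1 varied most, over a 32.0-fold range. In females it ran from 16.0 CPM in female 3 through a median of 114 to 511 in female 9. In castrated males it ran from 29.2 CPM in castrated male 4 through a median of 75.8 to 213 in castrated male 8. The groups overlapped throughout, and female 9 lay far above the next female, number 2 at 156 CPM. The female mean was 127.9 ± 144 CPM and that of castrated males 89.4 ± 61.6 CPM (SD, n = 10 per group), from 677 to 15929 counts. Between 53.6 CPM and 97.9 CPM there was no library: 9 stood below this gap, 4 females and 5 castrated males, and 11 above it, 6 females and 5 castrated males. The gap was noticed after the values were seen. Ages were 239 to 250 days below it and 233 to 250 days above it.

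**Figure D1:**
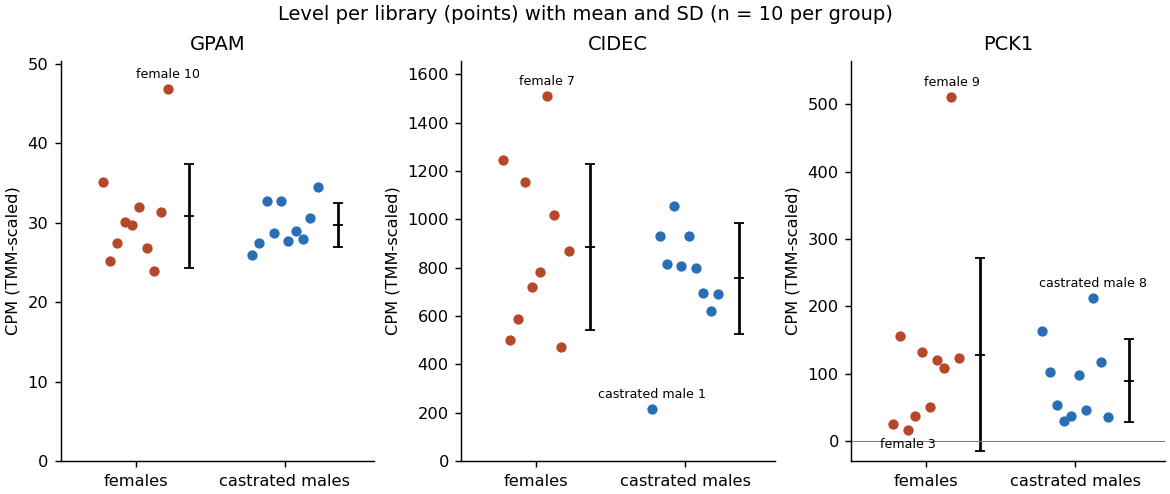
CPM of GPAM, CIDEC and PCK1 in each library (points), females and castrated males side by side, with the mean and SD of each group (n = 10) as a bar. The groups overlap for each gene, and single libraries stand apart: female 10 at 46.8 for GPAM, castrated male 1 at 216 for CIDEC and female 9 at 511 for PCK1.

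These spreads were set against all loci with a mean of at least 10 CPM, 8769 of them, whose log2 CPM had a median SD of 0.26 after the mean of each sex was taken out. The SD was 0.22 for GPAM, at percentile 34.0, then 0.61 for CIDEC, at percentile 93.3, and 1.26 for PCK1, at percentile 99.4. Counting error was small beside this, with a coefficient of variation of 3.04%, 0.629% and 2.20% in the same order. Each spread was then recomputed without the most extreme library. PCK1 without female 9 had an SD of 1.11 and a 13.3-fold range. CIDEC without castrated male 1 had an SD of 0.45 and a 3.20-fold range, and GPAM without female 10 an SD of 0.16 and a 1.47-fold range.

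Females and castrated males were compared first. None of the 3 members passed an adjusted p of 0.05 in edgeR's quasi-likelihood test with Benjamini-Hochberg adjustment over 21587 loci, and neither did any other locus (0 called, 0%). At an unadjusted p under 0.05, 935 loci stood out, 4.33%, with no member among them. The log2 difference, females minus castrated males, was 0.05 for GPAM (SE 0.101, unadjusted p = 0.596). For CIDEC it was 0.23 (SE 0.233, unadjusted p = 0.336) and for PCK1 0.52 (SE 0.507, unadjusted p = 0.318), and the adjusted p was 1 for each. Over all loci the median was 0.00. Without both libraries numbered 10 the differences were 0.00, 0.23 and 0.43 in the same order (adjusted p = 1.0 for each by edgeR, n = 9 a group). The PCK1 value rested on female 9, without which it was -0.07, and the GPAM value on female 10, without which it was -0.02. The CIDEC value was 0.11 without female 7, the library of most CIDEC, 0.13 without castrated male 1, the library of least, and 0.07 by limma-voom. The PCK1 value was 0.11 by FPKM with a pseudocount of 0.1, 0.13 with a pseudocount of 1 and 0.15 by limma-voom. With age in the model GPAM stood at -0.03, CIDEC at 0.01 and PCK1 at 0.85. Markers of immune cells lay lower in the libraries labelled female, whereas 50.9% of all loci lay above 0. This held at 8 of 8 macrophage genes, with a median of -0.55, and at 8 of 9 T and NK cell genes, with a median of -0.56. An unadjusted p under 0.05 was found for 3 and 5 of them, against 2.05% of all loci in that direction, and none passed the adjustment. Without both libraries numbered 10 the counts below 0 were again 8 of 8 and 8 of 9, with medians of -0.54 and -0.54, and 3 and 3 genes had an unadjusted p under 0.05, against 1.94% of all loci in that direction. Over all loci 52.1% then lay above 0. Castrated male 1 had the highest summed level of both lists, and these counts were not recomputed without it. The part of these markers in the values of the members was not tested.

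Age at slaughter was the other measure that differed between animals. With sex in the model and per 10 days, the log2 slope of GPAM was 0.19 (SE 0.0983, unadjusted p = 0.0605). CIDEC had a slope of 0.48 (SE 0.228, unadjusted p = 0.0453), and PCK1 had -0.67 (SE 0.579, unadjusted p = 0.257). By edgeR the adjusted p was 0.867 for GPAM and CIDEC and 0.878 for PCK1, so no slope passed. No locus passed (0 of 21587, 0%), and 1189 had an unadjusted p under 0.05, 5.51%, of which 1.78% of all loci had a positive slope, as CIDEC did. The high CIDEC libraries were female 7 at 249 days, female 1 at 247 days and female 4 at 243 days, and the low ones were castrated male 1 at 237 days and female 9 at 244 days. The slope of CIDEC was 0.42 without castrated male 1 and 0.53 without both libraries numbered 10. It was 0.40 without female 2 (unadjusted p = 0.130 by edgeR) and 0.40 without female 7 (unadjusted p = 0.093 by edgeR). Without castrated male 2 it was 0.67 (unadjusted p = 0.010 by edgeR). The slope of GPAM fell to 0.11 without female 10 and was 0.11 without both, 0.12 by limma-voom and 0.24 without female 8. The slope of PCK1 was -0.26 without sex in the model. Markers of other cell types also leaned on age, with a slope below 0 for 8 of 8 macrophage genes (median -0.53), 8 of 9 T and NK cell genes (median -0.28) and 3 of 3 endothelial genes (median -0.13). It was below 0 for 6 of 7 smooth muscle and pericyte genes (median -0.24) and 6 of 7 fibroblast and matrix genes (median -0.07). It was above 0 for 6 of 7 fat cell markers (median 0.16), a list that includes CIDEC itself. Over all loci 50.2% had a slope above 0. None of these markers passed the adjustment, and their part in the age slopes of the members and of the lists described further on was not tested.

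**Figure D2:**
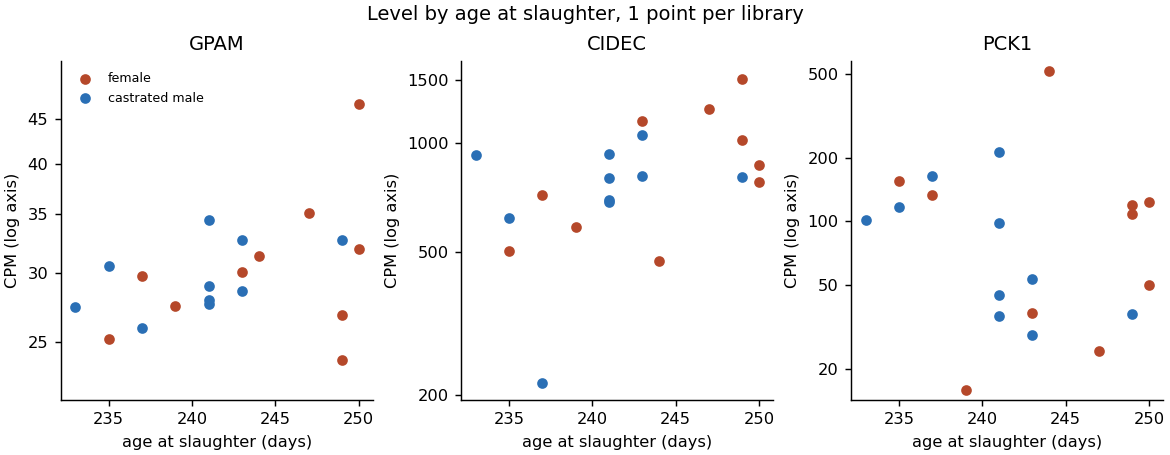
CPM on a log axis against age at slaughter in days, 1 point per library, females and castrated males in separate colours. CIDEC has a slope of 0.48 log2 units per 10 days, GPAM 0.19 and PCK1 -0.67, none past the adjusted threshold, and the oldest 2 animals, at 250 days, are both females.

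The slopes of the 2 sexes were then compared. CIDEC had a log2 slope per 10 days of 0.64 in females and 0.27 in castrated males, a difference of 0.37 (SE 0.458). PCK1 had -0.27 in females and -1.28 in castrated males, a difference of 1.01 (SE 1.18), and GPAM had 0.23 and 0.15, a difference of 0.08 (SE 0.204). The adjusted p of the difference was 0.957, 0.956 and 0.980 by edgeR. Over all loci, 0 passed (0%) and 1170, 5.42%, had an unadjusted p under 0.05. Without castrated male 2, the youngest animal at 233 days, the CIDEC difference was -0.12.

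Ratios within a library do not depend on library scaling. The log2 ratio of CIDEC to PCK1 ran from -0.12 in female 9, the sole library with more PCK1 than CIDEC counts, to 5.68 in female 1. Its mean was 3.35 ± 1.76 in females and 3.29 ± 1.44 in castrated males (SD, n = 10 each). The ratio of CIDEC to GPAM was 4.77 ± 0.608 and 4.57 ± 0.614, and that of GPAM to PCK1 -1.42 ± 1.51 and -1.28 ± 1.09. Without both libraries numbered 10 the sex difference was 0.23 for CIDEC to PCK1, 0.23 for CIDEC to GPAM and 0.00 for GPAM to PCK1. Over 6 two-sided permutation tests of these ratios on sex and on age, the smallest adjusted p was 0.525. The largest slope was that of CIDEC to PCK1 at 1.08 per 10 days (permutation p = 0.157), and it was 1.24 without both libraries numbered 10.

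CIDEC and PCK1 leaned in opposite directions across the 20 libraries, without passing the test. Their log2 CPM had a Pearson r of -0.38 (permutation p = 0.0942, adjusted over 3 pairs 0.282) and a Spearman rho of -0.40 (permutation p = 0.0777, adjusted 0.233). Without the 2 libraries farthest from the median CIDEC level, r was -0.48. With the mean of each sex taken out r was -0.41, and the same trimming gave -0.12. Without castrated male 1 these values were -0.34 and -0.29. Without both libraries numbered 10 they were -0.42 and -0.54, and by FPKM with a pseudocount of 0.1 -0.40 and -0.48. The strength of the lean thus depended on the setting. The library of most PCK1 was not left out alone. Over all 20 libraries, r for GPAM and PCK1 was -0.16 and rho -0.31, with an adjusted permutation p of 0.491 and 0.260. For CIDEC and GPAM r was 0.17 and rho 0.07, with an adjusted permutation p of 0.491 and 0.756.

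Each member was set against 9 lists of genes and against the total count and the mitochondrial share, 33 relations in all. A list's score was the mean z-score of its genes, with the member itself left out. CIDEC was higher where fatty acid synthesis genes were higher, with r = 0.70 (permutation p = 0.001, adjusted 0.0165). This list held 13 genes with a locus, among them SCD, FASN and ACACA. CIDEC was lower where endothelial markers were higher, with r = -0.75 (permutation p = 0.00022, adjusted 0.00726), a list of which 3 of 8 genes were measured. It was also lower where macrophage markers were higher, with r = -0.64 (permutation p = 0.00346, adjusted 0.0358, 8 of 12 genes measured). PCK1 was lower where fatty acid synthesis genes were higher, with r = -0.61 (permutation p = 0.00434, adjusted 0.0358). Spearman's rho was 0.60, -0.68, -0.43 and -0.55 for these 4, and no rho passed the adjustment, with the smallest adjusted permutation p at 0.0528. With the mean of each sex taken out, these 4 again passed by Pearson's r. By rho only CIDEC with endothelial markers then passed, at -0.72 (adjusted permutation p = 0.0142).

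The 3 relations of CIDEC were weaker without castrated male 1. That of PCK1 was not weaker by Pearson's r, whereas its rho moved from -0.55 to -0.48. Castrated male 1 had the lowest CIDEC level and the lowest summed level of fatty acid synthesis genes, 1460 CPM against a median of 21130 in castrated males. It also had the highest summed levels of macrophage markers, 1259 CPM against a median of 407, of endothelial markers, 2291 CPM against a median of 1554, and of T and NK cell markers, 132 CPM against a median of 60.3. Without it, 0 of the 33 relations passed. CIDEC then had r = 0.50 with fatty acid synthesis (adjusted permutation p = 0.339), -0.59 with endothelial markers (adjusted 0.121) and -0.39 with macrophage markers (adjusted 0.509). For PCK1 with fatty acid synthesis r was -0.62 without it, with an unadjusted permutation p of 0.00433, and the adjusted p over the 33 relations was 0.121. Without the 2 libraries farthest from the median of each list, r was 0.33, -0.60, -0.54 and -0.47 for the 4 in the order first given. For fatty acid synthesis these 2 were castrated male 1 and female 9, the library of most PCK1. The relations were not recomputed without female 9 alone. The part of cell makeup in the level of CIDEC was not tested. GPAM had no relation past the adjustment, with r from -0.35 to 0.38 and adjusted permutation p from 0.360 to 0.974.

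**Figure D3:**
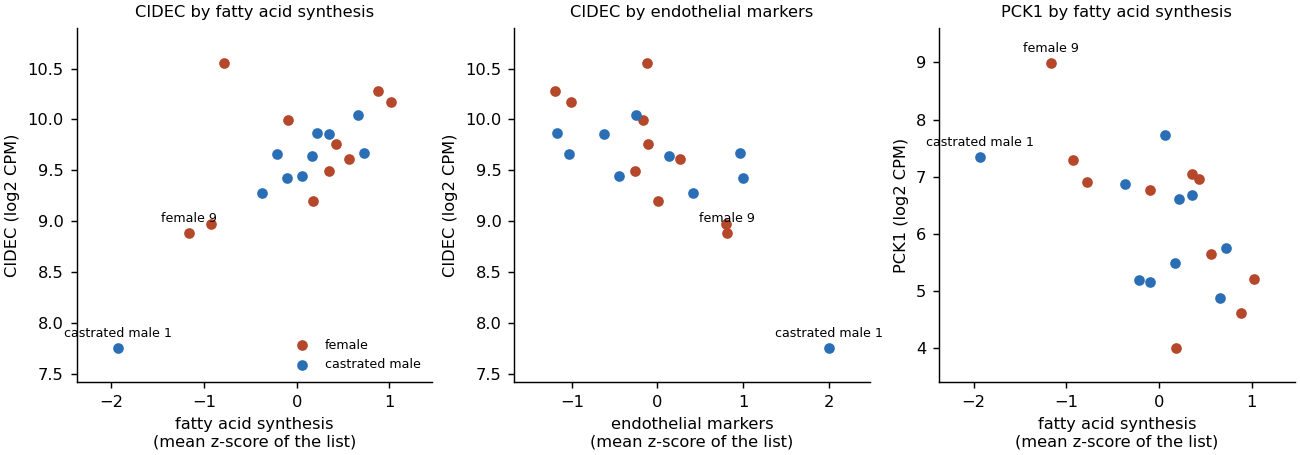
Log2 CPM of CIDEC or PCK1 against the score of fatty acid synthesis genes or endothelial markers (mean z-score), 1 point per library and colours by sex. Castrated male 1 sits at the edge of each list score, and Pearson's r is 0.70, -0.75 and -0.61 from left to right with it and 0.50, -0.59 and -0.62 without it.

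The genes most like each member were taken from 5883 loci with a symbol and a mean of at least 10 CPM, by Pearson r of log2 CPM over the 20 libraries, which share their scaling. They are a description and carry no test. PCK1 was most like NR2F1, an orphan nuclear receptor, at r = 0.83, then TBX3, a T-box factor, at 0.75. ST13, a cochaperone of heat shock proteins, followed at 0.73, DAPK2, a protein kinase, at 0.72 and GSC, a homeobox factor, at 0.71. NR2F1 ran from 10.5 CPM in female 1 to 32.8 in female 7, and its r without female 9 was 0.81. TBX3, highest in female 9 at 132 CPM, fell to 0.64. The most opposed were ARVCF, a catenin, at -0.81, PNPLA3, a lipase-like enzyme of lipid droplets, at -0.73 and C1QTNF4, a secreted protein, at -0.73. PNPLA3 had its lowest level, 20.1 CPM, in female 8 and its highest, 116 CPM, in castrated male 4, the castrated male with the least PCK1.

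CIDEC was most like COL5A3, a collagen chain, at r = 0.89 and ALDOC, a glycolytic aldolase, at 0.88. DNASE1L2, a deoxyribonuclease, and ATG7, an activating enzyme of autophagy, also reached 0.88, and NDUFAB1, the mitochondrial acyl carrier protein, 0.87. All 5 were lowest in castrated male 1, as CIDEC was, with ALDOC at 205 CPM there against a mean of 976. Without that library they kept r from 0.75 to 0.81, highest for ATG7. The most opposed were TAX1BP3, a PDZ domain protein, at -0.85, CTTNBP2NL at -0.83 and CTNND1, a catenin of cell junctions, at -0.79, each highest in castrated male 1.

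GPAM was most like DENND4C, an exchange factor for Rab proteins, at r = 0.80, and AP4S1, an adaptor complex subunit, at 0.77. ZNF148, a zinc finger factor, and CARNMT1, the carnosine methyltransferase, stood at 0.74 and 0.73. These 4 were highest in the library labelled female 10, and without it their r fell to between 0.50 and 0.63. The most opposed were GPER1, a membrane estrogen receptor, at -0.84, IGFBP7 at -0.83 and B9D2, a protein of the ciliary base, at -0.83. These 3 were lowest in female 10, with GPER1 at 9.14 CPM against a mean of 25.7.

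The isoform table split each locus further. Isoforms were tied to loci by matching their FPKM sums to the locus FPKM, which held in 20 of 20 libraries for 4 isoforms of GPAM and 4 of CIDEC. For 16 isoforms of PCK1 it held within 1% in 15 libraries, with a largest deviation of 5.77%, so the PCK1 shares are approximate. An isoform whose nearest reference transcript is not named in the table was assembled by Cufflinks.

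Nearly all CIDEC RNA came from 2 isoforms. TCONS_00023218, tied to reference transcript ENSSSCT00000012648, made up 59.2 ± 6.49% of the FPKM and TCONS_00023215, with no reference transcript, 40.5 ± 6.32% (SD, n = 20). The first share ran from 51.1% in castrated male 1 to 74.6% in female 7, with castrated male 10 next at 73.3%. GPAM was led by TCONS_00031154, with no reference transcript, at 64.9 ± 13.0%, from 36.8% in female 10 to 91.9% in female 7. The reference isoform of GPAM, TCONS_00031160 with ENSSSCT00000011627, took 25.1 ± 10.8%, from 1.57% in female 7 to 46.0% in female 10. The lead isoform of PCK1 was TCONS_00039782, with ENSSSCT00000034470, at 52.4 ± 8.27%, followed by TCONS_00039769, with ENSSSCT00000008222, at 20.3 ± 13.0%. The latter was listed at 0 in castrated male 10 and took 45.7% in female 4.

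Of the 24 isoforms of the members 9 reached the FPKM filter, 2 of GPAM, 2 of CIDEC and 5 of PCK1, and the other 15 were not tested. None of the 9 passed limma's test on log2(FPKM + 0.1). Over 33316 isoforms, 20 passed between the sexes, 0.06%, and 0 passed for age, 0%. The number for sex was 3 without both libraries numbered 10 and 0 when any other single library was left out. On sex, 781, 2.34%, and on age, 1471, 4.42%, had an unadjusted p under 0.05. The closest member was TCONS_00023218 of CIDEC, with an age slope of 0.59 per 10 days (SE 0.274, unadjusted p = 0.0433, adjusted p = 0.977 by limma). The other main CIDEC isoform had 0.48 (SE 0.242). Between the sexes the main isoforms of GPAM, CIDEC and PCK1 differed by -0.02, 0.19 and 0.03 on the log2 scale, with an adjusted p of 1 for each by limma. The pseudocount makes these values understate the change of isoforms at low FPKM.

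**Figure D4:**
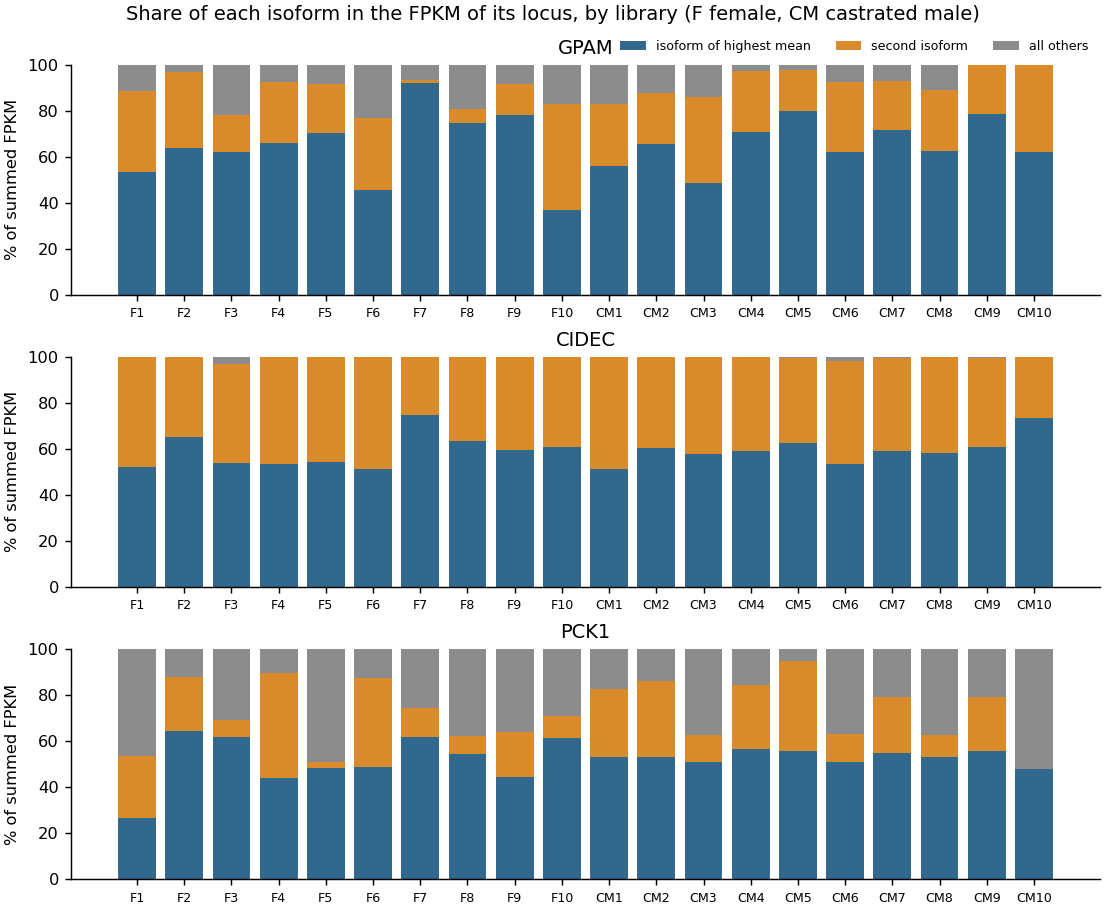
Share of each isoform in the summed FPKM of its locus, in percent, for GPAM, CIDEC and PCK1 in each library (F female, CM castrated male), with the isoform of highest mean level at the bottom, the next above it and the rest in grey. The lead isoform of CIDEC takes 51.1 to 74.6% and that of GPAM 36.8 to 91.9%.

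The other enzymes of glycerolipid assembly were followed as a list of 16, of which 9 were tested. By FPKM the highest were AGPAT1, which adds the second acyl chain, at 318 ± 83.0, GPAT4 at 143 ± 33.8, LPIN1, a phosphatidate phosphatase, at 96.2 ± 23.5 and DGAT1, which adds the last acyl chain, at 39.5 ± 8.0 (SD, n = 20). None of the 9 passed on sex, age or the difference of slopes. For age 8 lay above 0 and 1 below, with a median log2 slope of 0.11, against 50.2% above 0 and a median of 0.00 over all loci. The smallest unadjusted p after GPAM was that of AGPAT1, with a slope of 0.29 (SE 0.173). On sex 6 lay above 0 and 3 below, with a median of 0.07, against 50.9% above over all loci. AGPAT5, an acyltransferase of the same family as AGPAT1, stood at -0.12 (SE 0.0714) and LPIN1 at 0.15 (SE 0.142). For the difference of slopes LPIN1 had 0.31 (SE 0.292) and GPAT3 0.27 (SE 0.292).

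Of 13 droplet proteins 7 were tested. For age all 7 lay above 0, with a median slope of 0.23, against 50.2% above 0 over all loci. CIDEC alone had an unadjusted p under 0.05, against 1.78% of all loci in that direction, and none passed the adjustment. After CIDEC the highest FPKM were PLIN1 at 433 ± 109, CAV1, the coat protein of caveolae, at 378 ± 71.4 and PLIN4, a perilipin of fat cells, at 250.5 ± 92.2 (SD, n = 20). PLIN1 had an age slope of 0.26 (SE 0.169). On sex 2 lay above 0 and 5 below, against 50.9% above over all loci. The 2 above were FITM1, which helps form droplets, at 0.47 (SE 0.324) and CIDEC. FITM1 was scarce, at 0.620 ± 0.457 FPKM. For the difference of slopes FITM1 had 0.66 (SE 0.623) and PLIN5, a perilipin of oxidative tissues, -0.45 (SE 0.467), the PLIN5 locus spanning several identifiers.

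For glyceroneogenesis and glycerol supply 8 of 15 genes were tested and none passed. PC, the pyruvate carboxylase that feeds the same route as PCK1, had 718 ± 161 FPKM, PDK4, the kinase that restrains pyruvate dehydrogenase, 709 ± 273, and GPD1, which makes glycerol-3-phosphate from a glycolytic intermediate, 328 ± 72.4 (SD, n = 20). PC stood above PCK1 in 20 of 20 libraries, by 5.17-fold in female 9 and by 137-fold in female 1. MDH2, the mitochondrial malate dehydrogenase, had 84.2 ± 21.2 FPKM. For age 5 lay above 0 and 3 below, against 50.2% above 0 over all loci. The 3 were PCK1, PCK2 at -0.30 (SE 0.256) and GPD1L, a relative of GPD1, at -0.08 (SE 0.129). GPD1 had 0.24 (SE 0.150) and GOT1, the cytosolic aspartate aminotransferase, 0.16 (SE 0.126). On sex PDK4 had -0.35 (SE 0.217) and MDH2 0.19 (SE 0.150), and PDK4 had a difference of slopes of 0.48 (SE 0.425).

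**Figure D5:**
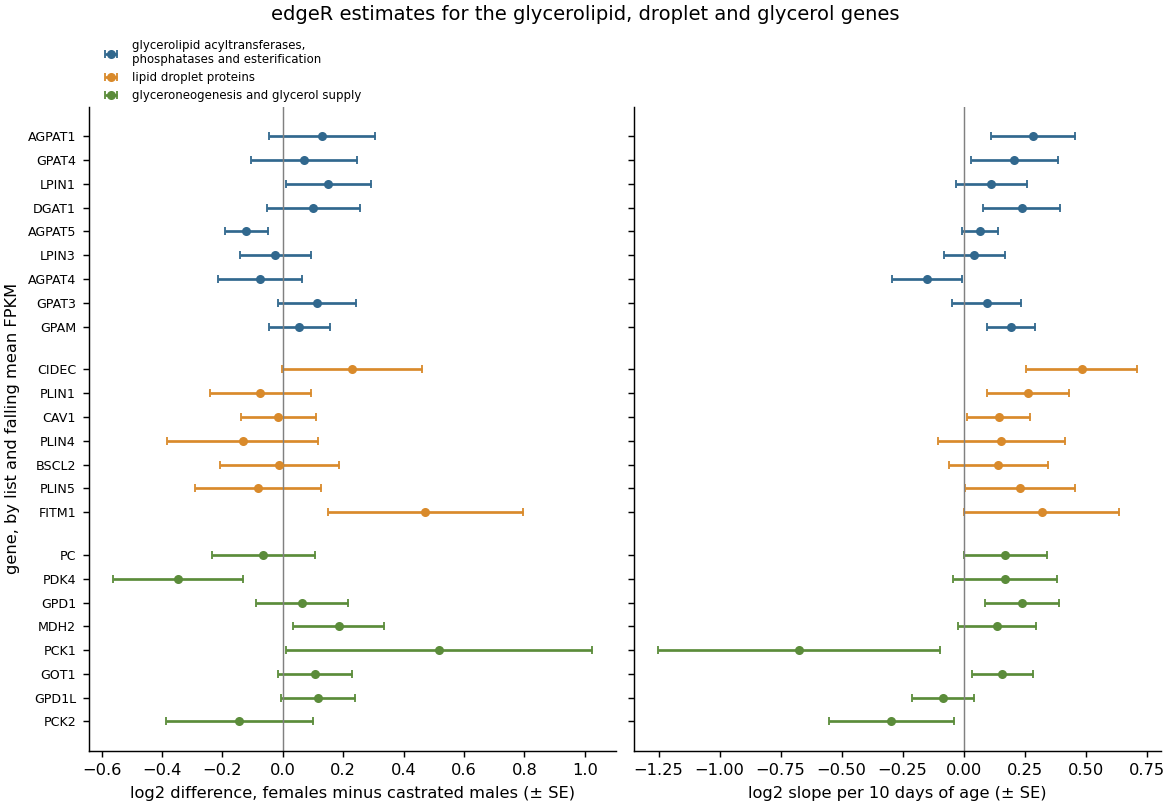
edgeR log2 estimates with SE for the tested genes of glycerolipid assembly, lipid droplets and glycerol supply: the difference of females minus castrated males on the left and the slope per 10 days of age on the right. PCK1 has the lowest slope of these genes, -0.67 with the widest SE, 0.579, and CIDEC the highest, 0.48.

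In the remaining lists 0 genes passed on sex, age or the difference of slopes. Their counts of age slopes above 0 stand against 50.2% over all loci. Without both libraries numbered 10 no listed gene passed on sex either, and the median sex difference was 0.01 for glycerolipid assembly, -0.06 for droplet proteins, 0.08 for glycerol supply, -0.10 for lipolysis, -0.05 for fatty acid synthesis, -0.07 for uptake and activation and -0.05 for regulators. In lipolysis 7 of 10 genes were tested, with a median age slope of 0.11 and 6 above 0. LIPE, the hormone-sensitive lipase, had 479 ± 124 FPKM and PNPLA2, the first lipase of triglyceride breakdown, 267 ± 41.3 (SD, n = 20). MGLL, the monoglyceride lipase, had 187 ± 36.5 FPKM, ABHD5, the activator of PNPLA2, 31.2 ± 7.97 FPKM, and ADRB1, a beta-adrenergic receptor, a difference of slopes of 0.70 (SE 0.434). G0S2, an inhibitor of PNPLA2, had the smallest p on sex, at 0.64 (SE 0.285, unadjusted p = 0.0349, adjusted p = 1 by edgeR), and at 0.53 without both libraries numbered 10 (unadjusted p = 0.102, adjusted p = 1.0 by edgeR). Fatty acid synthesis had 13 of 15 genes tested, 11 above 0 for age, and a median slope of 0.29. SCD, the stearoyl desaturase, had 2545 ± 1245 FPKM and a slope of 0.37 (SE 0.488), and FASN, the fatty acid synthase, 471 ± 299 FPKM and a slope of 0.48 (SE 0.570). TKT, a transketolase, had 510 ± 122 FPKM, and ME1, the malic enzyme, 212 ± 124 FPKM from a locus that spans several identifiers. On sex IDH1, the cytosolic isocitrate dehydrogenase, had -0.22 (SE 0.172) and ELOVL5, an elongase, 0.26 (SE 0.224). FADS2, a desaturase of polyunsaturated chains, had an age slope below 0, at -0.34 (SE 0.164), and a sex difference of 0.13 (SE 0.162). In uptake and activation 7 of 12 were tested, with a median slope of 0.02. FABP5, a fatty acid binding protein, led at 1052 ± 248 FPKM, and ACSL4, an acyl-CoA synthetase, had -0.31 on sex (SE 0.150, unadjusted p = 0.0481, adjusted p = 1 by edgeR) and -0.30 without both (unadjusted p = 0.0814, adjusted p = 1.0 by edgeR). ACSL1, the main acyl-CoA synthetase of fat cells, had 199 ± 74.2 FPKM and VLDLR, a lipoprotein receptor, 42.8 ± 12.9 FPKM. ACSL3, a synthetase of the same family, had a difference of slopes of -0.42 (SE 0.222), and SLC27A1, a fatty acid transporter, an age slope of 0.24 (SE 0.160). Among regulators 14 of 22 were tested, 8 above 0 for age with a median of 0.11. PPARG, the master regulator of fat cells, had 181 ± 44.95 FPKM and an age slope of 0.13 (SE 0.161), and MLXIPL, a glucose-responsive factor whose locus spans several identifiers, 0.30 (SE 0.155). CEBPA, a factor of fat cell differentiation, had 67.2 ± 27.5 FPKM, and ATF3, a stress-induced factor, 59.4 ± 44.6 FPKM. FOXO1, a factor restrained by insulin, had an age slope of 0.22 (SE 0.108). PPARA, a regulator of fatty acid oxidation, had 0.32 on sex (SE 0.270) and NR3C1, the glucocorticoid receptor, -0.08 (SE 0.0922). IRS1, an adaptor of insulin signalling, had a difference of slopes of 0.45 (SE 0.379).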

How the data were processed

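Polyadenylated RNA of 20 backfat samples was measured, 1 library per sample, and no 2 libraries had identical counts. The authors deposited raw read counts for 23483 Cufflinks loci, checked to be whole numbers, and FPKM for the same loci and for 63418 isoforms. Per the submitters' processing notes, the build was Sscrofa10.2 and the tools were Cufflinks 2.1.1, TopHat2 2.0.8, Bowtie2 2.1.0.0 and DESeq2, with no roles given. How reads were counted (tool, strand, reads that match several places) is not given in the sources used here. Symbols came from a gene name table, joined on the Ensembl identifier, and older ones from RefSeq synonyms (Sscrofa11.1).

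Counts were tested in edgeR 4.0.16 (R 4.3.3) with quasi-likelihood fits and TMM factors on the 21587 loci that filterByExpr kept, at a Benjamini-Hochberg adjusted p of 0.05. There were 3 fits: the sexes, age with sex as a covariate, and the difference of slopes. Log2 CPM used a prior count of 2. Isoform FPKM were tested by limma 3.58.1 (limma-trend) on log2(FPKM + 0.1), for the 33316 that reached an FPKM of 0.5 in 10 libraries. Permutation tests used 100000 resamples, two-sided, in Python 3.11.15 with numpy 2.4.6, scipy 1.17.1 and pandas 2.3.3, and matplotlib 3.10.9 drew the plots. The fits were tested on simulated data.

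Before the TMM factors were applied, 1 CPM stood for 25.8 to 51.2 counts by library, so counting error was small for the members. The labels give each sample a separate number, and p-values measure the spread between these samples. From each list, the genes named were the 4 of highest FPKM, the 2 of smallest p per comparison and any past the threshold, and for each member the 5 loci of highest and 3 of lowest correlation, of which 1 is not reported here. PCK2 and GPD1L were added after their values were seen. The members, lists and tests were chosen with earlier results of these data known. Alternatives were other scalings, no filter, DESeq2 1.42.0, limma-voom with quality weights, FPKM with pseudocounts of 0.1 and 1, age or sex as a covariate, and libraries left out.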

Additional observations from a re-analysis of the deposited data

Results flagged for a closer look

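Of 18 sets of 10 values checked for a single library far from the rest, 6 held one. The limit used is passed by about 1 in 20 sets of normally distributed values. CPM and FPKM were checked without taking logs, so this rate need not hold for them. GPAM in females was highest in the library labelled female 10, at 46.8 CPM, with female 1 next at 35.1 CPM. CIDEC in castrated males was lowest in castrated male 1, at 215.7 CPM, with castrated male 9 next at 620.8 CPM, and in FPKM the values were 161.7 and 467.2. PCK1 in females was highest in female 9, at 511.3 CPM against 155.9 CPM in female 2, and at 121.4 FPKM against 48.5 FPKM. The log2 ratio of CIDEC to GPAM was lowest in castrated male 1, at 3.05, with castrated male 10 next at 4.32. The 6 sets are not independent, since CPM, FPKM and ratios share the same libraries.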

How the results depend on the processing

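No paired analysis was possible because the labels carry no replicate number shared between the groups. No member passed the adjusted threshold on sex, age or the difference of slopes under any alternative run. Between the sexes, where the edgeR fit called 0 loci (935 at an unadjusted p under 0.05), DESeq2 called 6, limma-voom 9, FPKM 12 or 11 by pseudocount 0.1 or 1, and the fit without both libraries numbered 10 called 18. With 1 library left out the number was 0 to 13, with 13 without female 10 and 7 without castrated male 10. For age DESeq2 called 5 loci and FPKM 1 at either pseudocount, with 0 to 1 on leaving 1 library out, and for the difference of slopes DESeq2 called 3, with 0 to 1. Isoforms called between the sexes numbered 20 with all libraries, 3 without both libraries numbered 10, and 0 to 14 with 1 library left out: 14 without castrated male 10, 11 without female 10 and 0 without any other. The GPAM sex difference was -0.025 with age in the model and -0.023 to 0.090 with 1 library left out. The PCK1 sex difference was -0.067 to 0.76, negative without female 9 alone. The GPAM difference of slopes was -0.025 by limma-voom, -0.0088 and -0.0073 by FPKM at pseudocount 0.1 and 1, -0.057 without both libraries numbered 10 and -0.065 to 0.16 with 1 library left out. The CIDEC difference of slopes was -0.12 to 0.56 in the same way, negative without castrated male 2. Without castrated male 1 the sex difference of the CIDEC to PCK1 ratio was -0.26, and 0 of 33 relations passed instead of 4. The correlation of GPAM with total count was 0.19 without both libraries numbered 10. Its correlation with the mitochondrial share was -0.17 by FPKM, and that of CIDEC was -0.26 without castrated male 1. Among isoform sex differences, TCONS_00031154 of GPAM stood at 0.0092 without both libraries numbered 10 and at -0.072 to 0.044 with 1 left out. TCONS_00023218 of CIDEC stood at -0.029 to 0.28. TCONS_00039769 of PCK1 stood at -0.030 with pseudocount 1, -0.52 without both and -0.49 to 0.41 with 1 left out, and TCONS_00039782 at -0.22 without both and -0.23 to 0.33. Among isoform age slopes, TCONS_00031154 stood at -0.081 to 0.11, TCONS_00031160 at 0.031 with pseudocount 1 and at -0.36 to 0.15 with 1 left out, and TCONS_00039769 at -0.75 to 0.10. The cause of these shifts was not tested. Of 542 values recomputed with 1 library left out, 475 kept their direction and side, 38 changed direction, 25 moved beyond the limit set for a count or value and 4 lost the call. Of 212 under the other alternatives the numbers were 190, 12 and 10, and 0 lost a call. Counting error, as a root mean square over the 20 libraries, was 0.629% for CIDEC and 2.20% for PCK1. The spreads without an extreme library, the likeness values without it, and the lists without both libraries numbered 10, were chosen after seeing the data.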
